A study of Mus musculus with 17 samples.

Results

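The rows described here are a block of 200 consecutive rows of a mouse expression array, listed rows 12601 to 12800 of the deposited value table. The block was chosen by position, at the place where rows annotated to the immunoglobulin heavy chain locus fall once a shift between names and values is allowed for. The choice was made with values in view, namely the higher levels of control IgM+CD138+ cells over control B220+CD23+ cells, so that difference is given as a description with no test. Of the 200 listed rows, 25 were blank in every array and 175 held log2 values, out of 33327 rows with values on the array. A row is one probe set, and all levels below are log2 signals. Dim rows were not tested: 141 of the 175 rows exceeded the median of their array in at least 2 arrays, and these entered a test that ran over 19350 rows in all.

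The samples were B-lineage cells sorted from the spleens of mice after 12 weeks on a high cholesterol diet, and the series compared 2 genotypes in 3 sorted populations. All mice, controls included, carried the LDL-R KO allele, a loss of the low density lipoprotein receptor that is widely used as a background for atherosclerosis studies. The control mice were LDL-R KO alone, and the other mice were c-myb h/h LDL-R KO. c-Myb is a transcription factor of blood-forming cells. Each genotype gave IgM+CD138+, B220+CD23+ and B220+CD23-IgM+ cells, where CD138 is a surface marker of antibody-secreting cells, B220 is a pan-B cell marker and CD23 is the low affinity IgE receptor found on follicular B cells. There were 3 arrays in each group except control B220+CD23-IgM+, which had 2, giving 17 arrays. Ages, the sex of the mice and pooling of spleens are not given in the sources used here. The labels number the samples within a genotype from 1 to 3, and a shared number across the populations of a genotype is read here as one mouse, although the labels do not state it. Control number 3 had no B220+CD23-IgM+ array.

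The immunoglobulin heavy chain locus lies on mouse chromosome 12. It holds a long array of variable segments, then diversity and joining segments, then the constant region genes that set the antibody class. Each B cell joins one variable, one diversity and one joining segment, and so transcribes mainly the variable segment it has rearranged. A sorted population therefore gives, for each variable segment, the sum over the clones that use it. Antibody-secreting cells carry far more heavy chain transcript than resting B cells, and their clones can differ from one mouse to the next. In sorted bulk RNA, fewer cells using a segment and less RNA per cell cannot be told apart.

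Names were checked first. The platform annotation gives a heavy chain locus name to 17 valued rows between listed rows 12721 and 12841, of which 9 lie inside the block. As listed, only 4 of the 17 were at least 4-fold higher in c-myb h/h IgM+CD138+ than in B220+CD23+ cells of that genotype. Displacements of 0 to 200 rows were scanned. The highest count, 15 of 17, came at 78, 82 and 83 rows earlier in the list, with 12 or 13 at 79 to 81. At 69 rows the count was 14 of 17, and at 104 and 106 rows it was 14 of the 15 rows that then held values. The scan thus did not settle on 1 shift. Between the displacements that match the ends of the bright stretch described below, 82 and 99 rows, the count was 7 to 15. Over all rows with values the share was 1.39%, but in that bright stretch it was 92 of 124 rows. Any names moved into the stretch would thus give a high count, and the best of a scan is a description. The sorting markers as listed did not settle the names. The brighter of the 2 rows listed as Sdc1, which encodes CD138, read 8.20 ± 0.23 in control IgM+CD138+ and 8.32 ± 0.16 in control B220+CD23+ cells, and 8.15 ± 0.20 and 8.01 ± 0.13 in the c-myb h/h groups (SD, n = 3 each), so neither genotype showed a clear excess in CD138+ cells. The row listed as Fcer2a, which encodes CD23, read 6.76 ± 0.05 in control IgM+CD138+ and 6.46 ± 0.17 in control B220+CD23+ cells, and 6.62 ± 0.08 and 6.35 ± 0.10 in the c-myb h/h groups (SD, n = 3 each), higher where CD23 was not sorted for. The row listed as Ptprc, which encodes B220, read 7.87 to 8.14 in the 6 groups. The brightest of 7 rows listed under the IgM heavy chain gene lies in the block and, like its neighbours there, was high in IgM+CD138+ cells, at 11.55 in the control and 10.53 in the c-myb h/h arrays against 7.25 and 6.61 in B220+CD23+ cells. Since the names were not borne out, they were not used to check the sorted cell types or the c-myb genotype, and the rows below are called by their listed row number with no gene or segment name. For the same reason no sequence is printed.

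Levels along the list fell into a clear pattern. A stretch of 138 listed rows, 12622 to 12759, carried the high values of IgM+CD138+ cells, and its ends were set, after the values were seen, at the first and last row that were at least 4-fold higher in c-myb h/h IgM+CD138+ than in B220+CD23+ cells of that genotype. The stretch held 124 rows with values, 114 of them tested. The median level of these 124 rows was 11.36 in the control and 11.1 in the c-myb h/h IgM+CD138+ cells. It was 7.38 and 7.81 in control and c-myb h/h B220+CD23+ cells, and 7.91 and 7.71 in control and c-myb h/h B220+CD23-IgM+ cells. Only IgM+CD138+ cells thus stood apart, well above the others in both genotypes. The B220+ populations did not separate, and their order differed between the genotypes. In single arrays the median of the stretch was 11.13 to 11.44 in the 6 IgM+CD138+ arrays, 7.22 to 7.93 in the 6 B220+CD23+ arrays and 7.64 to 7.86 in the 5 B220+CD23-IgM+ arrays.

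The rows on either side lacked that step, which inside the block follows in part from how the ends were set. The 10 valued rows before the stretch, 12601 to 12621, had group medians between 6.10 and 6.47. The 41 rows after it, 12760 to 12800, had group medians between 4.47 and 4.73. Over the 100 listed rows before the block the group medians were 5.18 to 5.37, near the array medians of 5.13 to 5.21, and over the 100 after it they were lower, at 4.23 to 4.33. In these outer windows 1 and 3 rows were at least 4-fold higher in c-myb h/h IgM+CD138+ than in B220+CD23+ cells, against 92 in the stretch. The end rows of the block were ordinary in level: row 12601 (listed ID 17283445) averaged 5.13 ± 0.43 in the control and 4.92 ± 0.40 in the c-myb h/h IgM+CD138+ cells (SD, n = 3 each). Row 12800 (17284551), too dim to be tested, averaged 3.57 ± 0.12 and 3.84 ± 0.51 in the same groups (SD, n = 3 each).

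**Figure D1:**
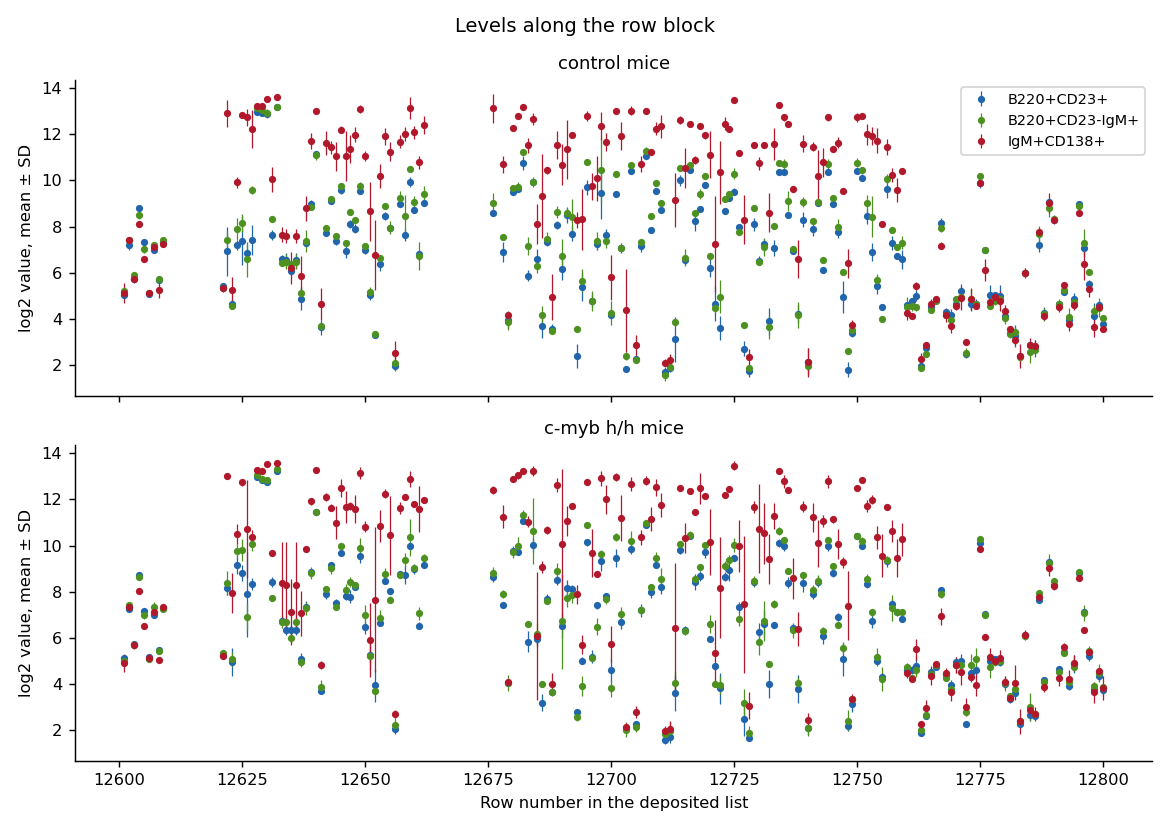
Mean log2 level of each valued row against its listed row number, for the 3 populations in the 2 genotypes. Levels in IgM+CD138+ cells step up at row 12622 and back down after row 12759, with stretch medians of 11.36 in the control and 11.1 in the c-myb h/h cells.

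The block took up a large share of the brightest signals of the IgM+CD138+ arrays. Among the 100 brightest rows of an array, 27 to 30 were block rows in control and 29 to 33 in c-myb h/h IgM+CD138+ cells. In each of the other arrays the count was 4 or 5. Mean levels above 12 were reached by 40 block rows in the control and 39 in the c-myb h/h IgM+CD138+ cells, and by 4 block rows in each other group. Those 4 rows, 12628, 12629, 12630 and 12632, stayed bright in every array. Row 12632 (listed ID 17283649) ran from 13.11 to 13.65 over the 17 arrays, and row 12628 (17283617) from 12.94 to 13.28. Array maxima were 13.37 to 13.79, so these rows lay close to the top of the scale. Whether differences between groups are compressed there was not tested. Row 12632 read 0.36 log2 higher (SE 0.07) in c-myb h/h IgM+CD138+ than in B220+CD23+ cells, with a limma adjusted p of 0.00102.

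In c-myb h/h animals IgM+CD138+ and B220+CD23+ cells differed over most of the block. The population step that placed the block was read in control arrays, but results from the c-myb h/h arrays were also known when it was chosen, so the test below is not independent of the choice. Of the 141 tested block rows, 109 rose and 8 fell in IgM+CD138+ cells (limma, Benjamini-Hochberg adjusted p under 0.05), 83.0% in all, against 43.1% of all tested rows, of which 19.3% rose and 23.8% fell. With dim rows kept in the test, 112 rose and 8 fell of 175. A difference of at least 4-fold was reached by 92 rows, all of them higher, against 2.38% of all tested rows, and one of at least 16-fold by 27 rows, against 0.408%. The median difference over the 141 rows was 2.83 log2, beside -0.07 over all tested rows. Since a row that is bright only in IgM+CD138+ cells passed the brightness filter through them, the counts over tested rows are a description of the rows that passed.

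Single rows show how far the step reached. Row 12725 (17284339), among the brightest, read 13.62, 13.25 and 13.51 in c-myb h/h IgM+CD138+ cells against 9.53, 9.30 and 9.53 in B220+CD23+ cells. The groups lay far apart, by 4.01 log2 (SE 0.15, limma adjusted p = 5.01e-11). Row 12753 (17284423) read 11.80, 11.96 and 12.22 against 6.96, 6.39 and 6.83, a difference of 5.26 (SE 0.28, limma adjusted p = 1.26e-09).

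The other rows with the widest differences in c-myb h/h animals were dim in B220+CD23+ cells, below the array medians, so their size rests on low signals and is given as read, with no rank. Row 12686 (17283976) read 9.30, 8.78 and 9.11 in the c-myb h/h IgM+CD138+ arrays against 3.26, 2.82 and 3.53 in B220+CD23+, 5.86 apart (SE 0.60, limma adjusted p = 1.30e-06). Row 12732 (17284362) read 10.65, 8.60 and 8.99 against 4.41, 3.29 and 4.32, 5.41 apart (SE 0.51, limma adjusted p = 5.27e-07). Rows 12754 and 12755 were 5.37 and 5.23 log2 apart, at means of 4.99 and 4.32 in B220+CD23+ cells, with limma adjusted p of at most 8.36e-09.

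All 3 rows with the deepest falls in IgM+CD138+ cells lay after the bright stretch. Row 12767 (17284460) read 6.61, 6.89 and 7.34 in c-myb h/h IgM+CD138+ against 8.02, 8.15 and 8.07 in B220+CD23+, and fell by 1.13 log2, with a limma adjusted p of 4.98e-05. Row 12776 fell by 0.98 and row 12796 fell by 0.80, with limma adjusted p of 0.000187 and 0.0287. No row inside the stretch read lower on average in c-myb h/h IgM+CD138+ than in B220+CD23+ cells.

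The control mice, whose IgM+CD138+ and B220+CD23+ arrays chose the block, are given only for their size. There 96 of the 175 rows, 95 of them tested, were at least 4-fold and 31 at least 16-fold higher in IgM+CD138+ cells. Over all tested rows the shares were 2.49% and 0.444%. The median difference over the 141 tested rows was 2.85 log2.

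IgM+CD138+ cells also stood above B220+CD23-IgM+ cells, by a somewhat smaller median step that was not tested against the first. In c-myb h/h animals 107 of 141 rows rose and 9 fell (limma adjusted p under 0.05), beside 37.8% of all tested rows, 16.1% up and 21.7% down. With dim rows kept in the test, 107 rose and 7 fell of 175. Here too, rows bright only in IgM+CD138+ cells passed the brightness filter through them, and the block was chosen with these arrays known. The counts over tested rows are a description of the rows that passed. The median difference was 2.62 log2, and 91 rows were at least 4-fold higher, against 1.97% of all tested rows, and 18 at least 16-fold, against 0.320%.

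The B220+ populations lay close together. In c-myb h/h animals 4 of the 141 rows differed between B220+CD23-IgM+ and B220+CD23+ cells, all 4 higher in B220+CD23-IgM+, against 2.94% of all tested rows and 2.03% in that direction, so the share was near the background. At an unadjusted p under 0.05 (limma) 21 block rows differed, against 16.6%. Row 12627 (17283604) moved most, reading 9.97, 10.38 and 9.83 in B220+CD23-IgM+ against 8.62, 8.13 and 8.28 in B220+CD23+ cells. Its arrays did not overlap, and the difference was 1.72 log2 (SE 0.36, limma adjusted p = 0.0155). Rows 12701, 12695 and 12734 rose by 0.89, 0.74 and 0.53, with limma adjusted p of 0.00544, 0.0119 and 0.0110. In control mice the same 4 rows, 12627, 12701, 12695 and 12734, read 2.19, 0.85, 1.10 and 0.40 higher in B220+CD23-IgM+ cells, from 2 arrays against 3, with no test fixed for that contrast. The median difference over the 141 rows was 0.15 in c-myb h/h and 0.22 in control mice. This c-myb h/h count fell to 1 when replicate 2 or replicate 3 of c-myb h/h B220+CD23+ was left out. With the replicate number as a block, which pairs the populations if a number is one mouse, 7 rows rose and 3 fell.

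The genotypes were compared within each population. Few block rows passed the test. In IgM+CD138+ cells 3 of 141 rows differed (1 rose and 2 fell in c-myb h/h animals), against 0.191% of all tested rows, 0.0982% up and 0.0930% down. A single row rose in B220+CD23+ cells, against 0.134% of all tested rows in either direction and 0.0982% upward. The same row rose in B220+CD23-IgM+ cells, against 0.0413% and 0.0310%. Altogether 4 rows differed in at least 1 population, against 0.326% of all tested rows. These values were known from earlier work on the same arrays when the block was chosen. Rows 12623 and 12694, both called in IgM+CD138+ cells, were check rows of that choice. The counts beside their background are therefore a description. At an unadjusted p under 0.05 (limma) the counts were 31 (12 up, 19 down), 18 (12 up, 6 down) and 22 (5 up, 17 down) block rows in IgM+CD138+, B220+CD23+ and B220+CD23-IgM+ cells, beside 10.6%, 6.45% and 8.66% of all tested rows.

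Row 12623 (17283565) rose in c-myb h/h IgM+CD138+ cells. It read 5.54, 5.61 and 4.59 in the control arrays and 6.95, 8.34 and 8.56 in the c-myb h/h arrays. Every c-myb h/h array was above every control array, by 2.71 log2 between means (SE 0.39, limma adjusted p = 0.0116). It was dim in B220+CD23+ cells, at 4.89, 4.53 and 4.51 in control and 4.69, 4.53 and 5.66 in c-myb h/h arrays, and the groups overlapped. In B220+CD23-IgM+ cells it read 4.46 and 4.66 against 5.41, 5.04 and 4.77, without overlap but with a limma adjusted p of 0.804.

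Row 12624 (17283573), the next in the list, had its genotype difference in the other populations. The B220+CD23+ arrays read 7.39, 6.97 and 7.28 in control and 8.95, 8.92 and 9.58 in c-myb h/h arrays. The difference was 1.94 log2 (SE 0.25, limma adjusted p = 0.00444), several times the SDs of 0.22 and 0.38. The B220+CD23-IgM+ arrays read 8.22 and 7.56 against 9.97, 9.91 and 9.42, a rise of 1.87 (SE 0.28, limma adjusted p = 0.0200). In IgM+CD138+ cells the values were 9.66, 10 and 10.11 against 10.89, 10.05 and 10.55, overlapping, with a limma adjusted p of 0.420. The B220+CD23-IgM+ call was lost without control replicate 2 (limma adjusted p = 0.526), c-myb h/h replicate 1 (0.113) or replicate 2 (0.0659), and the B220+CD23+ call without control replicate 2 (0.0519).

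Rows 12694 and 12746 fell in c-myb h/h IgM+CD138+ cells. Row 12694 (17284039) read 7.25, 7.89 and 9.81 in control and 6.18, 5.49 and 5.46 in c-myb h/h arrays, and so fell by 2.61 log2, with an SE of 0.49. Its groups did not overlap, but the control arrays were spread over more than 2 log2 units and the limma adjusted p of 0.0476 was close to the threshold. In B220+CD23-IgM+ cells the same row read 5.32 and 6.01 against 3.54, 3.86 and 4.37 (limma adjusted p = 0.306). Its call ended with no filter on dim rows (limma adjusted p = 0.0503), with the mouse as a random block (0.0526), with trend and robust moderation (0.0655), and without control replicate 2 (0.0621), c-myb h/h replicate 2 (0.115) or replicate 3 (0.105) of IgM+CD138+.

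Row 12746 (17284402) was lower in c-myb h/h animals in every population. In IgM+CD138+ cells it read 11.65, 11.41 and 11.87 in control and 9.32, 10.44 and 10.47 in c-myb h/h arrays, and it fell by 1.57 log2 (SE 0.25, limma adjusted p = 0.0186). In B220+CD23+ cells it read 8.09, 7.60 and 7.70 against 6.93, 7.07 and 6.73, and in B220+CD23-IgM+ cells 7.76 and 8.23 against 6.39, 6.63 and 6.62. Neither population's arrays overlapped, at differences of -0.88 and -1.45 with limma adjusted p of 0.327 and 0.101. Only the IgM+CD138+ difference of this row passed the test. When limma was fitted to the arrays of the compared groups alone, with no spread lent by the other groups, no row passed in IgM+CD138+ or B220+CD23-IgM+ cells.

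**Figure D2:**
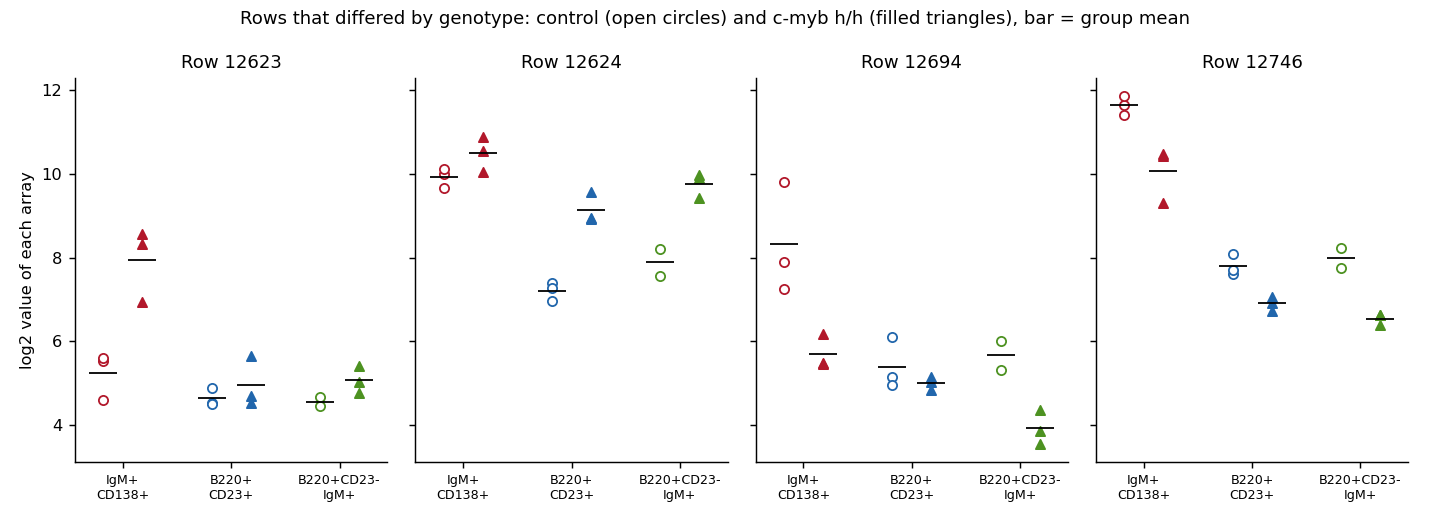
Log2 level in each array of the 4 rows that passed the genotype test in at least 1 population, by population and genotype. Row 12623 is higher in c-myb h/h IgM+CD138+ cells, row 12624 is higher in c-myb h/h cells of both B220+ populations, and rows 12694 and 12746 are lower in c-myb h/h IgM+CD138+ cells.

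Genotype differences were larger in size over the block rows than over all tested rows. The median size of the genotype difference over the 141 rows was 0.27 log2 in IgM+CD138+, 0.20 in B220+CD23+ and 0.23 in B220+CD23-IgM+ cells. Over all tested rows it was 0.12, 0.10 and 0.13. The signed medians were -0.05, 0.02 and -0.12 in the block, with 58, 76 and 50 of the 141 rows above 0. Differences of at least 2-fold were reached in IgM+CD138+ cells by 5 rows upward and 14 downward, against 0.682% of all tested rows in either direction. There were 5 such rows in B220+CD23+ cells, all higher in c-myb h/h animals, against 0.382%, and in B220+CD23-IgM+ cells 3 upward and 4 downward, against 0.661%. The spread between arrays of a group was also wider in the block, and its part in these differences was not tested.

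The first 6 rows of the bright stretch held 4 of the 5 rows that were at least 2-fold higher in B220+CD23+ cells and 2 of the 3 in B220+CD23-IgM+ cells. From row 12622 to row 12627, the genotype difference in B220+CD23+ cells was 1.24, 0.31, 1.94, 1.41, 1.02 and 0.92. In B220+CD23-IgM+ cells it was 0.98, 0.51, 1.87, 1.63, 0.33 and 0.46. All 12 values were positive, yet only those of row 12624 passed the test. Row 12625 (17283588) read 8.44 and 7.90 in control and 10.18, 9.98 and 9.25 in c-myb h/h B220+CD23-IgM+ cells, without overlap (limma adjusted p = 0.193). In IgM+CD138+ cells the same 6 rows had differences of both signs, from -2.02 at row 12626 to 2.71 at row 12623. These rows were singled out after their values were seen.

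**Figure D3:**
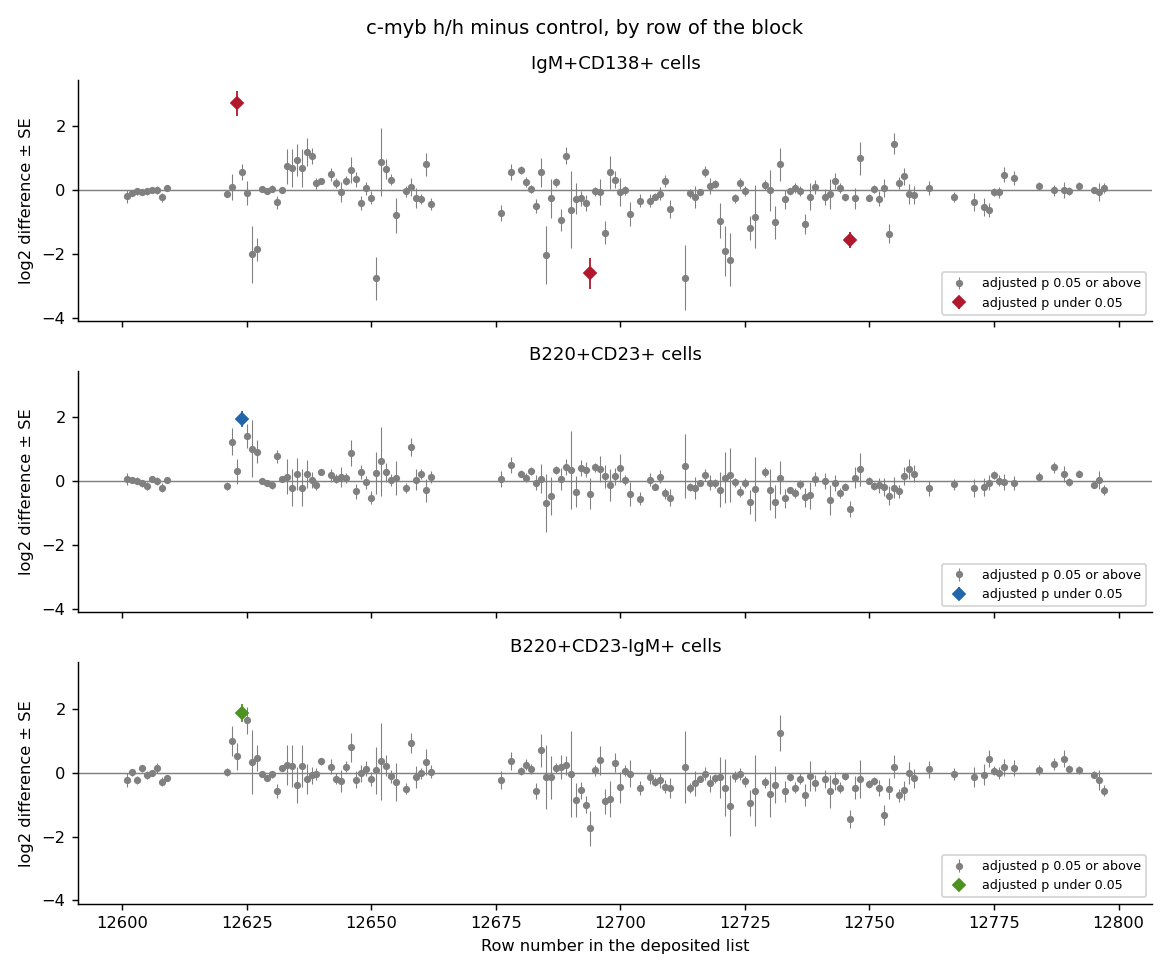
Genotype difference (c-myb h/h minus control, log2) of each tested block row against its listed row number, in the 3 populations. Differences run from -2.77 to 2.71 in IgM+CD138+, from -0.88 to 1.94 in B220+CD23+ and from -1.74 to 1.87 in B220+CD23-IgM+ cells, and most lie near 0.

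Some rows kept their arrays apart by genotype in every population. The control and c-myb h/h arrays did not overlap for 26 rows in IgM+CD138+ cells (11 higher, 15 lower), against 10.8% of all tested rows. The counts were 32 in B220+CD23+ cells, against 16.7%, and 57 in B220+CD23-IgM+ cells, where there were only 2 control arrays, against 27.6%. In the latter the c-myb h/h arrays were higher for 17 rows and lower for 40. For 4 rows the arrays did not overlap in the same direction in all 3 populations, against 0.734%. This count was chosen after the values were seen.

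Of these 4 rows, 3 were lower in c-myb h/h animals. Row 12746 is described above. Row 12726 (17284344) differed by -1.20, -0.65 and -0.96 log2 in IgM+CD138+, B220+CD23+ and B220+CD23-IgM+ cells, and row 12737 (17284373) by -1.07, -0.50 and -0.70. None of the 6 differences passed the test, the smallest limma adjusted p being 0.184. The arrays of row 12737 were tight in B220+CD23+ cells, at 6.94, 6.96 and 6.95 in control against 6.30, 6.44 and 6.59 in c-myb h/h animals. The row that was higher throughout, 12640 (17283742), moved little: 0.28, 0.29 and 0.35 log2, with limma adjusted p of 0.284, 0.442 and 0.267. It was among the brightest rows, at 13.36, 13.20 and 13.29 in c-myb h/h IgM+CD138+ cells against 13.09, 12.93 and 12.98 in control.

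Whether a genotype difference itself changed between populations was tested as an interaction. No block row passed in any of the 3 pairs of populations (limma adjusted p under 0.05), and no row of the whole table did either, 0.00%. At an unadjusted p under 0.05 there were 23 block rows for IgM+CD138+ against B220+CD23+ cells, 6 when B220+CD23-IgM+ was set against B220+CD23+ cells, and 20 for IgM+CD138+ against B220+CD23-IgM+, beside 6.73%, 3.88% and 7.11% of all tested rows. The differences that passed in one population and not in another are therefore not shown to differ between them. Row 12623 came to an interaction adjusted p of 0.349 (limma) for IgM+CD138+ against B220+CD23+ cells, and row 12627 to 0.152. Over the 141 rows the genotype differences of the B220+ populations correlated at r = 0.63, against 0.39 over the other 19209 tested rows. For IgM+CD138+ with B220+CD23+ cells r was 0.14 in the block and 0.19 outside it, and for IgM+CD138+ with B220+CD23-IgM+ cells 0.36 and 0.25. These are descriptions across rows that share mice and arrays, and rows are not independent replicates. Among the rows, 12634 and 12636 held identical values, as did 12735 and 12744.

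The mice of a group differed more in the block than over all tested rows. In IgM+CD138+ cells a wide spread was also found in 2 other dense runs of the list, given further below. The median SD between arrays over the 141 rows was 0.301 log2 in the control and 0.267 in the c-myb h/h IgM+CD138+ cells. Over all tested rows it was 0.182 and 0.167, and over rows of like level in those groups 0.121 and 0.104. The block's median SD in B220+CD23+ cells was 0.193 in the control and 0.191 in the c-myb h/h animals, against 0.114 and 0.111 at like level. In B220+CD23-IgM+ cells it was 0.133 (2 arrays) and 0.203, against 0.107 and 0.122. The block was thus more spread than rows of like level in each of the 6 groups, and most so in IgM+CD138+ cells.

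**Figure D4:**
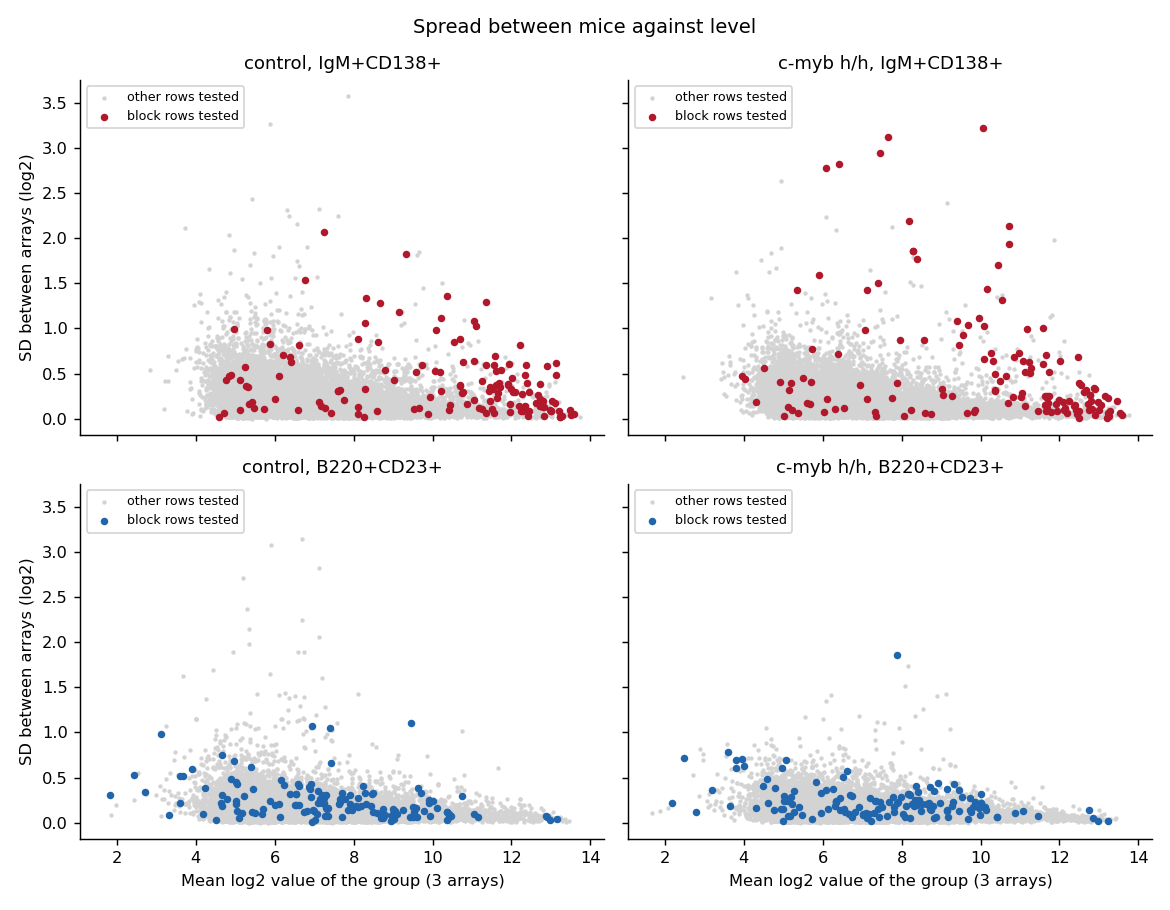
SD between arrays of a group against the group's mean log2 level, for tested block rows and for the other tested rows, in IgM+CD138+ and B220+CD23+ cells of both genotypes. In IgM+CD138+ cells the tested block rows tend to lie above other rows of like level. Their median SD was 0.301 in the control and 0.267 in the c-myb h/h animals, against 0.121 and 0.104 at like level.

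Large gaps between mice were concentrated in IgM+CD138+ cells. An SD above 1 log2 was found for 23 block rows in c-myb h/h and 12 in control IgM+CD138+ cells, against 0.491% and 0.656% of all tested rows. For B220+CD23+ cells there were 1 in c-myb h/h and 3 in control mice, against 0.0982% and 0.305%, and in B220+CD23-IgM+ cells 2 and 1, against 0.186% and 0.382%. The 23 block rows were part of 95 such rows in the whole table for c-myb h/h IgM+CD138+ cells.

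Single rows could be bright in one mouse and dim in another. Row 12652 (17283859) read 5.16, 11.16 and 6.64 in the c-myb h/h IgM+CD138+ arrays, a range of 6.0 log2, the widest of the block. Mouse 2 alone was bright, and its B220+CD23+ value of 4.76 was also above those of mice 1 and 3, 3.64 and 3.45. Those B220+CD23+ values were all below the array medians. Row 12713 (17284222) read 5.99, 9.42 and 3.83 in the c-myb h/h IgM+CD138+ arrays, again with mouse 2 highest, while its control values were 8.12, 10.45 and 8.91. Row 12727 (17284349) went the other way, at 9.0, 4.05 and 9.30, with mouse 2 lowest, as in B220+CD23+ and B220+CD23-IgM+ cells, where that mouse read 1.90 and 2.55. In those B220+ cells of c-myb h/h mice every value of row 12727 was below the array medians. Row 12685 (17283972) read 6.65, 3.05 and 8.53 in the c-myb h/h IgM+CD138+ arrays, while in B220+CD23+ cells mouse 2 had the highest of the 3 values, 6.21. Among control mice the widest range was 3.86, at row 12721 (17284314), with 5.76, 6.38 and 9.62 in IgM+CD138+ cells.

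Gaps that recurred at full size in other cells of the same number were few. The 3 c-myb h/h mice stood at least 2-fold from the other 2 the same way in both IgM+CD138+ and B220+CD23+ cells for 2, 2 and 1 block rows, against 0.0620%, 0.0413% and 0.109% of all tested rows. In all 3 populations this held for no block row, against 0.0362%, 0.0155% and 0.0568%. For the 3 control mice the counts were 0, 1 and 0, against 0.212%, 0.0568% and 0.0827%.

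At smaller size the order of the mice was shared in some rows. Row 12690 (17284002) had the largest pooled SD of the block, 1.71 log2 (limma residual SD). It read 6.34, 11.93 and 11.94 in c-myb h/h IgM+CD138+, 4.47, 8.52 and 7.14 in B220+CD23-IgM+ and 5.93, 6.81 and 6.80 in B220+CD23+ cells. Mouse 1 was the lowest of the 3 in each population. The same held for row 12626 (17283595), at 8.36, 12.52 and 11.27 in IgM+CD138+, 6.26, 7.33 and 7.15 in B220+CD23-IgM+ and 5.87, 8.21 and 9.55 in B220+CD23+ cells. Rows 12730 and 12731 were also lowest in c-myb h/h mouse 1, at 8.49 and 9.23 in IgM+CD138+, 5.83 and 6.0 in B220+CD23+, and 5.19 and 5.76 in B220+CD23-IgM+ cells. The 3 rows that were lower in c-myb h/h animals throughout, 12726, 12737 and 12746, also had their lowest c-myb h/h IgM+CD138+ value in mouse 1, at 8.68, 7.58 and 9.32. Row 12690 was chosen by its spread, the others in this paragraph after their values were seen, so the shared order is a description.

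Over the whole block, same-number arrays of c-myb h/h mice 1 and 2 deviated from their group means more alike than different-number arrays. In c-myb h/h mouse 3 this held only for IgM+CD138+ with B220+CD23+ cells. Across the 141 rows, the correlation of deviations in mice 1, 2 and 3 was 0.35, 0.33 and 0.19 for IgM+CD138+ with B220+CD23+ cells. It was 0.60, 0.33 and 0.14 for IgM+CD138+ with B220+CD23-IgM+ cells, and 0.39, 0.22 and -0.03 for the B220+ populations. All but the last were above their values outside the block, which were 0.01 to 0.20. Pairs of c-myb h/h mouse 2 with mouse 3 exceeded the same-number value of mouse 3 in the other comparisons. They gave 0.192 and 0.143 for IgM+CD138+ with B220+CD23-IgM+ cells, and 0.202 and 0.175 for the B220+ populations. In control mice most same-number values lay below those outside the block. There the values were -0.04, -0.04 and 0.03 for IgM+CD138+ with B220+CD23+ cells, below 0.13, 0.05 and 0.09 outside the block. There were only 2 control B220+CD23-IgM+ arrays, whose deviations mirror each other. With IgM+CD138+ cells, mice 1 and 2 gave 0.19 and 0.01 against 0.12 and 0.11 outside the block, so mouse 1 lay above its outside value. With B220+CD23+ cells they gave 0.23 and 0.22 against 0.41 and 0.30 outside the block. Different-number pairs of 3-array groups had a median of -0.10 (24 pairs, range -0.44 to 0.20). Because deviations in a group sum to 0, these pairs are pulled below 0 where same-number arrays deviate alike, so they are not separate evidence. These correlations are across rows of the same arrays and carry no test.

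**Figure D5:**
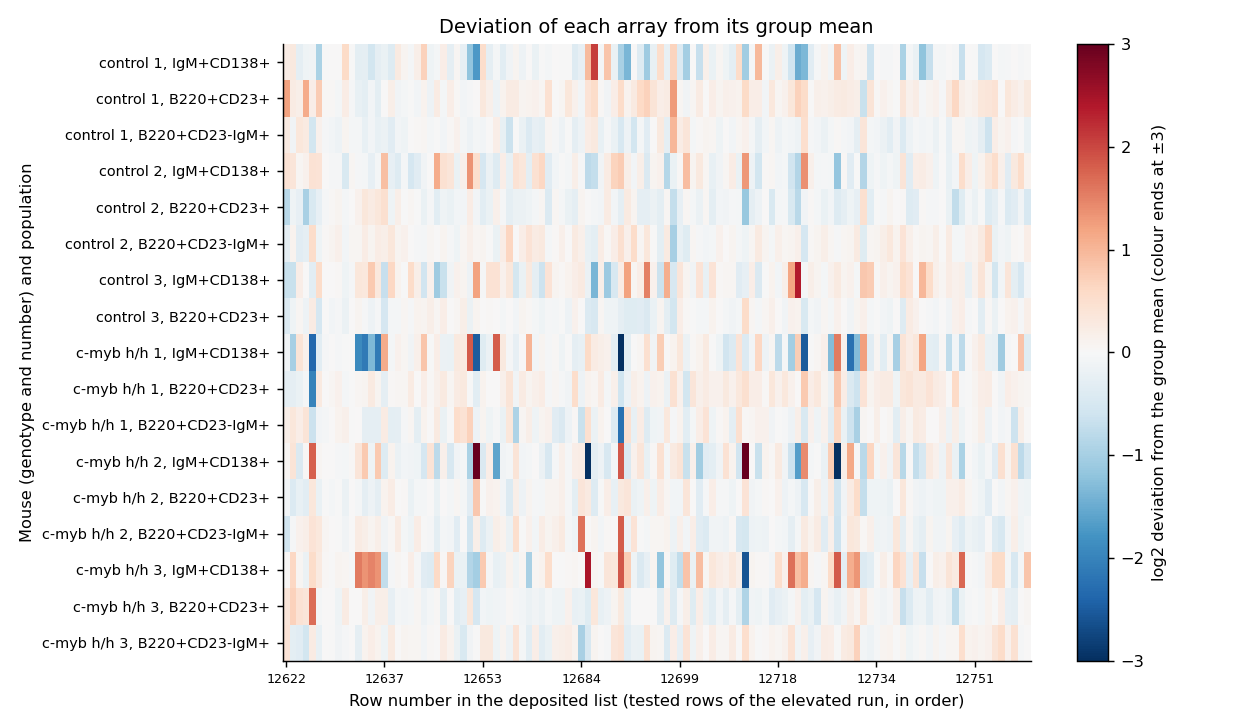
Deviation of each tested row of the bright stretch from its group mean (log2), array by array. Correlations of same-number deviations were taken over all 141 tested block rows. For c-myb h/h mouse 1, IgM+CD138+ with B220+CD23-IgM+ cells gave r = 0.60. For the control mice, IgM+CD138+ with B220+CD23+ cells gave r of -0.04 to 0.03.

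The listed table had 2 other dense runs of rows at least 4-fold higher in c-myb h/h IgM+CD138+ than in B220+CD23+ cells. Rows 31101 to 31200 held 53 such rows of 99 with values, and rows 30201 to 30300 held 29 of 100, against 44 of 75 and 48 of 100 in the first and last 100 rows of the block. Their median SDs in IgM+CD138+ cells were 0.25 in the control and 0.24 in the c-myb h/h animals in both windows. The first 100 rows of the block had 0.34 and 0.24, and the last 100 had 0.21 and 0.32, so the wide spread was not particular to the block. Genotype calls there were 0 in each population in the first window, and 1, 0 and 0 in IgM+CD138+, B220+CD23+ and B220+CD23-IgM+ cells in the second (limma adjusted p under 0.05). No test compared the windows with the block.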

How the data were processed

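Biotin-labelled total RNA of each sample went on its own array. What the authors deposited are log2 values, for which the submitters' processing notes name RMA without a version. The sources used here do not say whether RMA ran on every array at once. Of 41801 listed rows, 8474 held no value in any array. The fit used limma 3.58.1 under R 4.3.3 (lmFit, then eBayes with neither trend nor robust, 2-sided), giving each of 6 groups its own mean over all 17 arrays, with 11 residual degrees of freedom. A row was tested if it was above the median of its array in at least 2 arrays. P-values were adjusted by Benjamini-Hochberg over 19350 rows and called under 0.05. Nothing states how the samples of a group were kept apart before sorting, so p-values measure the spread between these samples, and the number of arrays limits the precision.

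The block, the lists and the tests were chosen with earlier results of these data known. Rows were named by rule: rows called by genotype, the check rows 12623 and 12694 of the choice, the 5 brightest in c-myb h/h IgM+CD138+ cells, the 5 most higher and 3 most lower there than in B220+CD23+ cells, up to 5 called in each direction between the B220+ populations, the 5 of largest pooled spread, and the ends of the block. Other rows were chosen after their values were seen. Marker lists were planned, but names as listed were not borne out and only sorting markers are given. On simulated data over all 19350 rows with their real spreads, limma recovered 84.0%, 93.0% and 77.0% of rows changed 2-fold between genotypes in IgM+CD138+, B220+CD23+ and B220+CD23-IgM+ cells and 98.0% of rows changed 4-fold in each, and 58.0% and 97.0% for the interaction of IgM+CD138+ with B220+CD23+ cells. Block rows were more spread (median pooled SD 0.321 against 0.177 log2), so these shares do not describe the block.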

Additional observations from a re-analysis of the deposited data

How the results depend on the processing

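The c-myb h/h differences of IgM+CD138+ cells kept their counts within 1.5 times under every alternative run. Genotype counts moved. In IgM+CD138+ cells the 3 rows became 0 with only the compared groups in the fit and 0 with a replicate block. In B220+CD23+ cells 1 row became 2 with array weights and 3 with the replicate block. In B220+CD23-IgM+ cells 1 row became 0 with only the compared groups, 2 with array weights and 4 with the replicate block. The 4 rows that differed between the B220+ populations of c-myb h/h animals became 8 with only the compared groups, 9 with array weights and 10 with the replicate block. With the mouse as a random block (consensus correlation 0.0315) the 3 IgM+CD138+ genotype rows became 2, and no other count changed. Between genotypes the replicates share only a number: same-number deviations correlated at 0.24, 0.03 and 0.20 in IgM+CD138+, 0.34, 0.07 and 0.09 in B220+CD23+, and 0.11 and 0.23 in B220+CD23-IgM+ cells. With no filter on dim rows, the median level of the block's tested rows became 9.92 (from 11.04) and 9.67 (from 10.68) in IgM+CD138+, 6.93 (7.32) and 6.81 (7.69) in B220+CD23+, and 7.17 (7.77) and 6.97 (7.66) in B220+CD23-IgM+ cells, control first, as dim rows then count.

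Leaving out each replicate gave 3 to 9 genotype calls in IgM+CD138+ cells (9 without c-myb h/h replicate 1, 6 without control replicate 3, 5 without control replicate 1), 0 to 3 in B220+CD23+ cells (0 without control replicate 2, 3 without control replicate 1) and 0 to 2 in B220+CD23-IgM+ cells (0 without control replicate 2 and without either of c-myb h/h replicates 1 and 2, and 2 calls when control replicate 1 was dropped). IgM+CD138+ gave 109 to 112 calls against B220+CD23+ cells (117 with all arrays) and 109 to 114 against B220+CD23-IgM+ (116). The B220+ populations gave 1 to 5. Interactions gave 0 to 1 for IgM+CD138+ with B220+CD23+ (1 without replicate 1 of either IgM+CD138+ group) and 0 for the other pairs. Median levels were 10.76 to 11.13 and 10.47 to 10.72 in IgM+CD138+, 7.21 to 7.38 and 7.58 to 7.70 in B220+CD23+, and 7.71 to 7.76 and 7.61 to 7.72 in B220+CD23-IgM+ cells, control first. Median SDs were 0.20 to 0.26 and 0.17 to 0.25, then 0.13 to 0.20 and 0.13 to 0.18, then 0.15 to 0.18 in c-myb h/h B220+CD23-IgM+ cells. Where a replicate of control B220+CD23-IgM+ was left out, the lone array is assumed to vary like the other groups. Row 12623 ranged from -0.04 to 0.53 log2 in B220+CD23+ cells, turning sign without c-myb h/h replicate 3 (limma adjusted p = 0.999), a difference that was not called. The cause of these changes was not tested.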
